A study of Mus musculus with 2 samples.

Results

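The SIBLING family (small integrin-binding ligand, N-linked glycoproteins) comprises the genes Dspp, Dmp1, Ibsp, Mepe and Spp1, which were chosen by symbol. Each symbol occurred once among the 34285 genes of the deposited count tables, so 5 of 34285 genes are described. The counts came from single cells of mandibular first molars with the tissue around them, taken from C57BL/6J mice at PN15.5 (PN, postnatal day). Mice of the Lipo-Clo group had received clodronate liposomes, a reagent that depletes macrophages, by intraperitoneal injection of 40 µg/g, first at PN3.5 and last at PN12.5, with doses at PN6.5 and PN9.5 between. Mice of the Lipo-PBS group had received vehicle liposomes at the same ages, and both libraries carry the same batch label. Each group is 1 library of unstated mouse number, so no difference between them has a replicate check. No p-value is given, and intervals (95%, exact Poisson for levels and ratios, exact Clopper-Pearson for shares) cover counting error only. Liposomes given systemically also reach phagocytes of other organs. Where numbers of cells differ, cells in the tissue and cells captured cannot be told apart.

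SIBLING genes encode secreted acidic phosphoproteins of mineralised matrix, which carry an RGD motif that binds integrins and are phosphorylated by the Golgi kinase Fam20c. They lie side by side on 1 chromosome. Dspp is cleaved into the dentin sialoprotein and dentin phosphoprotein of odontoblasts, and Dmp1 serves dentin and osteocytes. Ibsp (bone sialoprotein) nucleates mineral in bone and acellular cementum, Spp1 (osteopontin) limits crystal growth and is also made by many non-skeletal cells, and Mepe is an osteocyte product.

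RefSeq promoter windows on GRCm38.p6, another build than the one named in the submitters' processing notes, were available for 4 of the 5 genes. They are shown because they share a spaced pair of short motifs. Each run below covers 170 bases before to 30 bases after an annotated start on the plus strand, at chr5:104202447-104202646 for Dmp1, chr5:104299117-104299316 for Ibsp, chr5:104325159-104325358 for Mepe and chr5:104434941-104435140 for Spp1. Capitals mark ATTGG (the reverse of the CCAAT box), the AT-rich hexamer that follows it (TTTAAA in Dmp1, Mepe and Spp1, but TTTATA in the Ibsp promoter), and the Runx core TGTGGT, written as ACCACA where it lies on the minus strand.

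Dmp1: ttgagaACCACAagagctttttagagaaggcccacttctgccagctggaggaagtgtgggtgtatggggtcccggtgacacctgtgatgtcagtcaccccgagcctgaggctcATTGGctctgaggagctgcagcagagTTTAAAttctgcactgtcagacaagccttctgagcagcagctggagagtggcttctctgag
Ibsp: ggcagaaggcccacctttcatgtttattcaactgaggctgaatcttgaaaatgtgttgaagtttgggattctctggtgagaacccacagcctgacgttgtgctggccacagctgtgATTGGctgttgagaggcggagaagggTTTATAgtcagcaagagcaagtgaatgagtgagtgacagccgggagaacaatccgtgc
Mepe: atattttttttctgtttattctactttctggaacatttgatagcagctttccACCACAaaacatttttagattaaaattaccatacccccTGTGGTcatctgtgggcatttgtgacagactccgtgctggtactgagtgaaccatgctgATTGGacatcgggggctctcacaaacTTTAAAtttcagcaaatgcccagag
Spp1: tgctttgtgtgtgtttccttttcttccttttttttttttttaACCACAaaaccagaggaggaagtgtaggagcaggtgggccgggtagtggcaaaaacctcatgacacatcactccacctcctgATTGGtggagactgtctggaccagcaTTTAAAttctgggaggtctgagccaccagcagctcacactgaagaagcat

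In all 4 of these windows the hexamer began 26 bases after the first base of ATTGG. The first base of ATTGG stood at −57 in Dmp1, −54 in Ibsp, −21 in Mepe and −46 in Spp1, counted from the annotated start. Dmp1 and Spp1 each have another annotated start whose window lacks the pair, so 4 of 6 windows hold it. Of 32817 windows of the same length over all genes, 0.89% had ATTGG followed 15 to 45 bases on by the hexamer TTTAAA or by the TATA box TATAAA in either orientation, and 0.064% (21 windows) had the spacing of 26. CCAAT or ATTGG alone occurred in 37.4%, TTTAAA in 13.2%, the TATA box in either orientation in 13.6% and the Runx core, on either strand, in 16.8%. The Runx core stood at −164 in Dmp1, at −118 and −80 in Mepe and at −128 in Spp1, and these letters were not found in the Ibsp window. The motifs were chosen after the sequences had been seen, and a match describes letters, not a site that is used.

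The deposited libraries held 9362 (Lipo-Clo) and 9653 (Lipo-PBS) cells with 31053404 and 30537834 UMIs (unique molecular identifiers, the count of captured transcripts). After filtering, 8254 and 8261 cells with medians of 2567 and 2678 UMIs remained, 23 of whose barcodes occurred in both libraries. The mitochondrial share of UMIs was 0.370% in Lipo-Clo but 1.73% in Lipo-PBS. Clustering without the 5 genes gave 27 clusters, of which dental mesenchyme, the collagen-producing cells of tooth, ligament and jaw, held 4129 and 3979 cells. One unnamed cluster, led by Tm4sf1, Tagln and Acta2, stood apart between the libraries with 42 Lipo-Clo and 588 Lipo-PBS cells, and it enters no comparison within mesenchyme. Re-clustering of the mesenchyme gave 12 subclusters, of which 7 could be named.

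Of the named subclusters, only the odontoblast-like and the osteoblast- or cementoblast-like ones are described here by markers other than the 5 genes. These markers come from the lists that gave the names, so their levels are not an independent check. The odontoblast-like subcluster (213 cells) carried Phex at 516 CPM (UMIs of the gene per 1000000 UMIs of the cells concerned), Mmp20 at 199 CPM and Nes at 332 CPM, against 6.23, 0.415 and 16.2 CPM in the osteoblast- or cementoblast-like subcluster (704 cells). Col11a2 (1340 against 441 CPM) and Wnt10a (171 against 52.3 CPM) lay the same way. Notum, also listed for odontoblasts, was higher in the osteoblast- or cementoblast-like cells (88.9 against 24.0 CPM), and Sall1 and Vwde were near 0, at 4.00 and 1.60 CPM in the odontoblast-like ones. Of the listed osteocyte genes, Sost, Fgf23 and Dkk1 were at 0 CPM in the osteoblast- or cementoblast-like subcluster and Irx5 at 10.4 CPM, so osteocytes were not marked there. In the odontoblast-like subcluster Irx5 was at 191 CPM (in 53.1% of cells), Dkk1 at 32.0 CPM, Sost at 4.00 CPM and Fgf23 at 0 CPM. Whether osteocytes are among the odontoblast-like cells was not tested. The odontoblast-like name depended on the clustering. The subcluster's mean log2 marker excess was 3.42 for the odontoblast list and 2.89 for the osteoblast or cementoblast list. In the first clustering a cluster of 216 cells, also led by Dspp and Bglap, scored 3.88 and 4.02 and took the latter name. There the odontoblast name went to 719 cells led by Ctnnd2 and Cntn4. Both clusters were then pooled as mesenchyme. Bone and cementum cells share the markers used and are not separated. CPM of a 3′ UMI count are not scaled by transcript length, so levels below are compared between cells for 1 gene, not between genes.

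Dspp, the main non-collagenous product of odontoblasts, was nearly confined to 1 subcluster in these libraries. Across all kept cells it had 3346 UMIs, 2015 in Lipo-Clo and 1331 in Lipo-PBS, and mesenchyme held 90.2% of them at 114 CPM. The other classes lay between 5.38 CPM in glia and 21.9 CPM in endothelium. In B, T or NK, neutrophil and erythroid cells, which do not make dentin, between 1.14% and 2.75% of cells had a Dspp UMI (median depths from 996 to 3695.5 UMIs), against 3.53% of mesenchymal cells (2845.5 UMIs). These 4 classes stood between 6.53 and 13.7 CPM, which is taken as the background of this gene.

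Among mesenchymal subclusters Dspp stood at 2264 CPM (2181 to 2349) in the odontoblast-like cells, which held 93.7% of its mesenchymal UMIs. A UMI was found in 63.8% of these cells, and in 45.5% of the 189 cells that could be thinned to 1000 UMIs. All other subclusters lay from 2.47 to 10.9 CPM, with overlapping intervals, so their order is not resolved, and none stood above the highest background class. In the osteoblast- or cementoblast-like cells, whose median depth was 2708.5 UMIs, Dspp was at 9.14 CPM (5.73 to 13.8).

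Dmp1, a matrix protein of both dentin and bone, had its level shared by both mineralising subclusters. Mesenchyme held 84.6% of its 2715 UMIs at 87.0 CPM, with 90.5 CPM in Lipo-Clo and 83.5 in Lipo-PBS. Outside mesenchyme it ranged from 0 in T or NK cells (0 of 208 cells, which allows a share of up to 1.44%, taken as 3 counts of the total) to 32.9 CPM in B cells, where 2 cells held 26 of its 54 UMIs. Within mesenchyme Dmp1 was at 565 CPM (524 to 608) in odontoblast-like and 545 CPM (516 to 576) in osteoblast- or cementoblast-like cells, intervals that overlap, and the order differed by library (502 against 583 CPM in Lipo-Clo, 655 against 507 CPM in Lipo-PBS). The next subcluster, a periodontal ligament-like (PDL-like) one led by Edil3, reached 39.8 CPM (32.0 to 48.9), overlapping the Lrrc4c-led unnamed one at 29.6 CPM (23.0 to 37.4), and the others lay at or below 22.4 CPM. The Edil3-led subcluster was named by a narrow margin. Its mean log2 marker excess was 2.21 for the periodontal ligament list, on which Edil3 stands, and 1.99 for the fibroblast list.

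Ibsp was the most abundant family member by UMIs, with 108446, and the one that marked the osteoblast- or cementoblast-like subcluster most fully. There it reached 22922 CPM (22731 to 23114), with a UMI in 99.1% of cells and a median of 56 UMIs per cell. The Tnn-led PDL-like subcluster followed at 2920 CPM, the dental follicle-like one at 1991 CPM, and the Edil3-led PDL-like one at 1408 CPM, each clear of the next by its interval. Odontoblast-like cells had 856 CPM (805 to 909), less than the Edil3-led PDL-like cells in Lipo-PBS (577 against 1656 CPM) but more in Lipo-Clo (1050.5 against 883 CPM). The Col14a1-led fibroblast-like subcluster was lowest at 264 CPM.

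The background of Ibsp was also high. B cells stood at 1237 CPM, neutrophils at 890.5 CPM, T or NK cells at 517 CPM and erythroid cells at 348 CPM, and between 10.6% and 18.2% of the cells of these 4 classes had a UMI. The Ibsp levels of odontoblast-like, fibroblast-like and the 5 unnamed mesenchymal subclusters, 264 to 1075 CPM, fall within that range or below it. The osteoblast- or cementoblast-like, Tnn-led PDL-like and dental follicle-like levels lay above it in both libraries. The Edil3-led PDL-like level did so only when the libraries were pooled, since it was below that of B cells in Lipo-Clo (883 against 1049 CPM) and beside it in Lipo-PBS (1656 against 1652 CPM).

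Spp1 was found in fewer cells than Ibsp, and in several classes its level rested on 1 cell. Mesenchyme held 75.4% of its 25436 UMIs at 727 CPM. B cells appeared higher, at 734 CPM, but 1 Lipo-Clo cell held 1042 of their 1203 UMIs, and without it they stood at 98.7 CPM. T or NK cells stood at 150 CPM, and at 7.70 CPM without their richest cell. Macrophages, which are known to make osteopontin in other settings, stood at 106 CPM (86.0 to 130), and 10.8% of them had a UMI, against 7.32% of neutrophils (97.1 CPM) and 6.36% of erythroid cells (24.6 CPM). Epithelium had 229 CPM, and 128 CPM without its richest cell.

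Within mesenchyme the largest summed Spp1 level was in the Edil3-led PDL-like subcluster, at 3977 CPM (3895 to 4059), against 2911 CPM (2843 to 2980) in the osteoblast- or cementoblast-like one. That order came from Lipo-Clo (6731 against 3108 CPM), and in Lipo-PBS the levels had overlapping intervals (2674 against 2709 CPM). Their cells differed in how the level was composed. Only 12.3% of the 758 PDL-like cells had an Spp1 UMI, and 47 cells with 10 or more held 8997 of the 9092 UMIs. In the osteoblast- or cementoblast-like subcluster 50% of cells had a UMI and 157 of 704 had 10 or more. The Lrrc4c-led subcluster came next at 539 CPM, which was 217 CPM without 1 Lipo-PBS cell of 754 UMIs. Odontoblast-like cells had 159 CPM, and 72.0 CPM without their richest cell.

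Mepe, which is made mainly by osteocytes, was at the limit of detection. It had 1 UMI among the 16515 kept cells, in a Lipo-Clo mesenchymal cell outside both mineralising subclusters. Lipo-PBS had 0 of 8261 cells with a UMI, which by the same 3 counts allows a share of up to 0.0363%. No level, order or ratio can be read for it from 1 UMI.

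**Figure D1:**
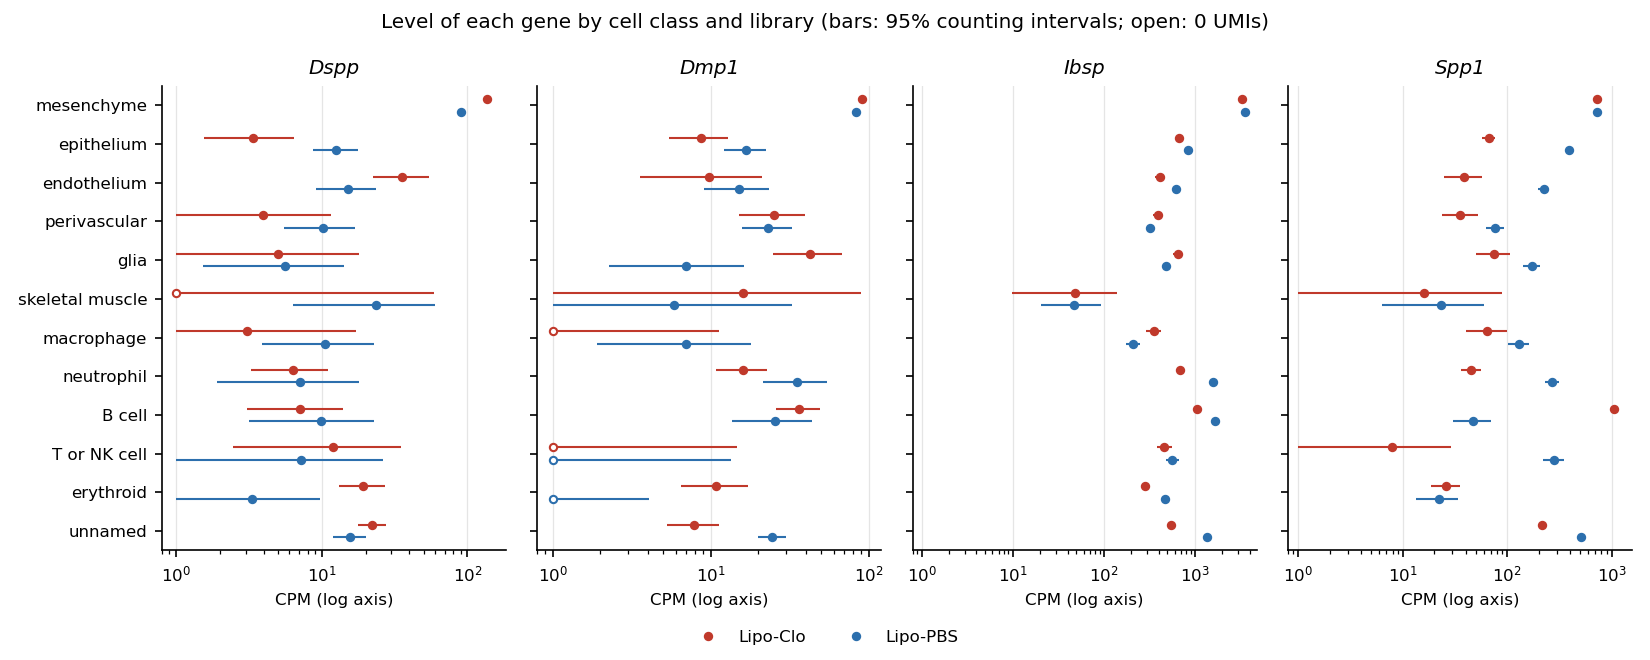
CPM (log axis) of Dspp, Dmp1, Ibsp and Spp1 in each cell class, by library, with 95% counting intervals drawn down to 1 CPM. Open circles mark 0 UMIs, drawn at 1 CPM. Dspp and Dmp1 stand highest in mesenchyme in both libraries, and the Lipo-Clo B cell point of Spp1 (1043 CPM) rests on 1 cell.

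**Figure D2:**
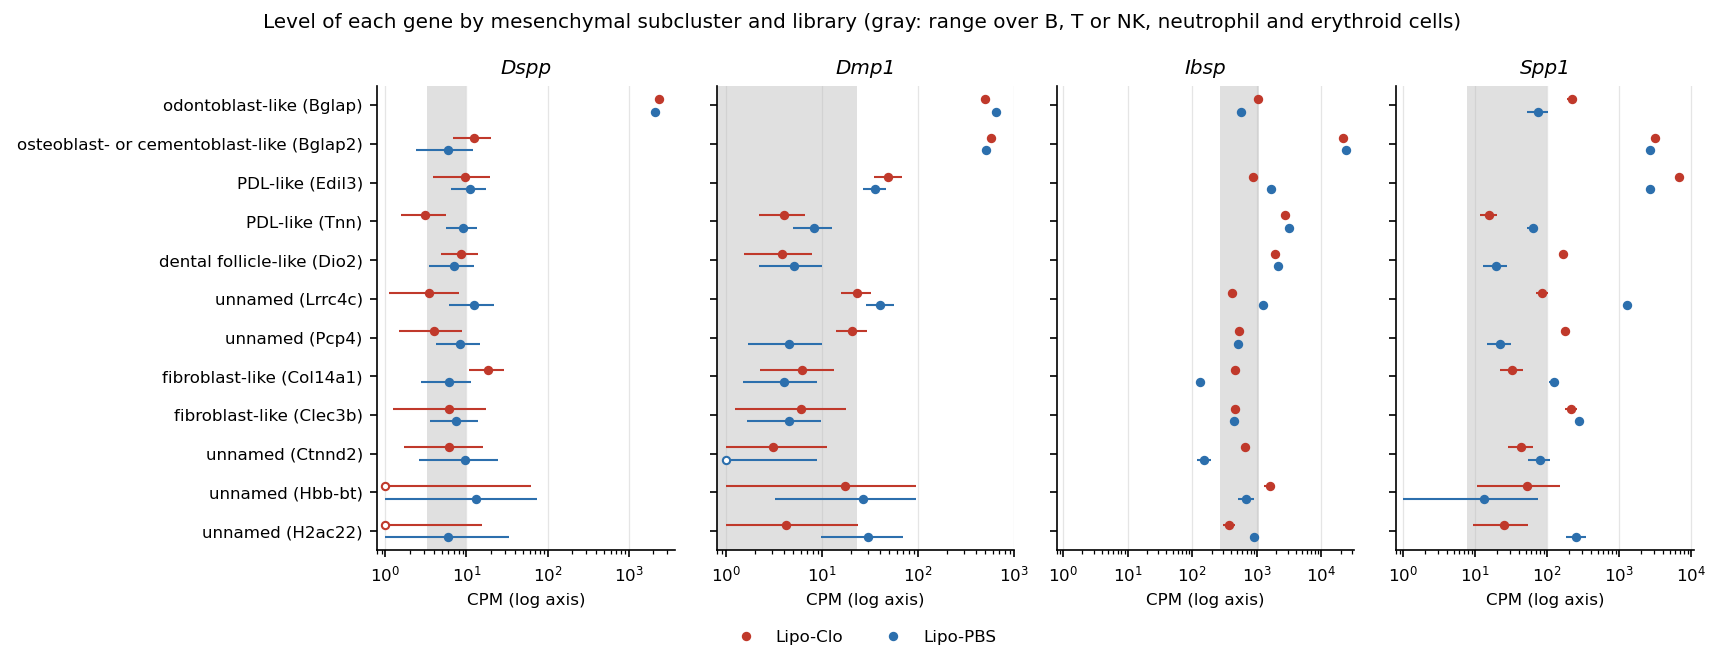
CPM (log axis) of the same genes in the 12 mesenchymal subclusters, each followed by a leading gene other than the 5, by library, with 95% counting intervals drawn down to 1 CPM and open circles for 0 UMIs. The gray band spans B, T or NK, neutrophil and erythroid cells, each without its richest cell. Dspp leaves the band in the odontoblast-like cells, Dmp1 does so most in both mineralising subclusters, and Ibsp is highest in the osteoblast- or cementoblast-like cells.

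The genes also differed in how many cells carried them. The fewest cells that together held 50% of a gene's UMIs numbered 28 for Dspp, 30 for Spp1, 84 for Dmp1 and 329 for Ibsp, out of 16515. The richest single cell had 163 UMIs of Dspp, 57 of Dmp1, 691 of Ibsp and 1098 of Spp1. Spp1 thus combined the richest cell with a UMI in 9.42% of all cells, while Ibsp was found in 25.3%. By library (Lipo-Clo, then Lipo-PBS) it took 17 and 12 cells for Dspp, 14 and 18 for Spp1, 39 and 47 for Dmp1 and 162 and 168 for Ibsp, so the order of Dspp and Spp1 differed between libraries.

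**Figure D3:**
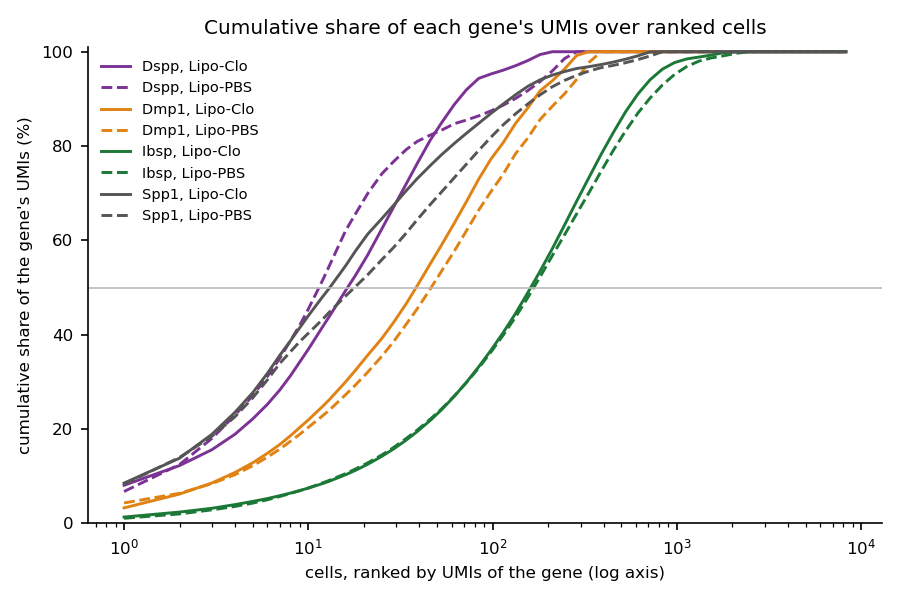
Cumulative share of each gene's UMIs (percent) over cells ranked by their UMIs of that gene (log axis), for Lipo-Clo (solid) and Lipo-PBS (dashed). The gray line marks 50%, which the Dspp and Spp1 curves reach within 12 to 18 cells and the Ibsp curves at 162 and 168 cells.

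Dmp1, Ibsp and Spp1 were often detected in the same cells. Among these genes Dmp1 alone was clearly more frequent in cells with Dspp than in cells without it. Of the 471 mesenchymal cells with a Dmp1 UMI, 79.8% also had Ibsp and 54.4% also had Spp1, against 28.9% and 8.04% of the cells without Dmp1. Thinned to 1000 UMIs, the corresponding shares were 81% and 52.0%, against 23.4% and 4.87%. Among the 286 cells with Dspp, 30.8% had Dmp1 (4.90% without Dspp), but Ibsp was found in 36.4% against 31.7%, and after thinning in 20.3% against 25.6%.

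Cells with 10 or more UMIs of a gene are called rich in it. Over all kept cells 77 were Dspp-rich and 318 Spp1-rich, and 0 cells were both. The exact interval of that share of the 77, up to 4.68%, holds the 1.93% of Spp1-rich cells among the others, so no separation was detectable. Of the 75 Dmp1-rich cells, 81.3% were Ibsp-rich, 56% Spp1-rich and 6.67% Dspp-rich. Among the 16440 other cells these shares were 9.76%, 1.68% and 0.438%. Across the 704 osteoblast- or cementoblast-like cells, Spearman's rho of counts per 10000 UMIs was 0.53 for Dmp1 and Spp1, 0.48 and 0.58 within Lipo-Clo and Lipo-PBS, and 0.14 for Ibsp and Spp1. Across the 213 odontoblast-like cells it was −0.25 for Dspp and Ibsp, and for Dspp and Dmp1 it was −0.27 within Lipo-Clo but 0.20 within Lipo-PBS, opposite in sign. These are descriptions over cells that share a library and vary in depth.

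Odontoblast-like cells were not uniform in Dspp. No UMI was found in 77 of them, 1 to 9 in 65 and 10 or more in 71. The ranges were cut at chosen numbers, with 17 cells at 8 to 12 UMIs. Whether the ranges hold separate cell types was not tested. Their median depths were 4617, 4155 and 4658 UMIs, so the ranges were not ordered by depth. Bglap (osteocalcin, a calcium-binding matrix protein) stood at 5825, 13716 and 58894 CPM in these ranges, with medians over cells of 21.0, 124 and 407 per 10000 UMIs. Phex, a membrane endopeptidase whose loss causes hypophosphataemia, stood at 79.3, 388 and 1157 CPM. Mmp20 (enamelysin, which cleaves Dspp protein) stood at 8.81, 93.9 and 528 CPM. All 3 were highest where Dspp was highest.

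The other family members differed by library across the same ranges. Dmp1 was at 334, 838 and 373 CPM in Lipo-Clo, highest in the middle range, but at 249.5, 826 and 1009 CPM in Lipo-PBS, highest where Dspp was. These are summed levels. Over both libraries the Dmp1 medians over cells were 1.23, 3.33 and 1.05 per 10000 UMIs, lowest in the Dspp-rich cells. Ibsp was at 1502, 834 and 783 CPM in Lipo-Clo and at 560, 954 and 115 CPM in Lipo-PBS, lowest in the Dspp-rich cells of each. Ifitm5, a membrane protein of osteoblasts, was lower at each step, at 799, 581 and 187 CPM over both libraries. Ifitm5 was picked out after its values had been seen, the others being on the lists described below.

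Cells in which Spp1 made up at least 1% of all UMIs numbered 92 in mesenchyme, 51 in Lipo-Clo and 41 in Lipo-PBS, and held 57.5% of its UMIs. The 1% limit is not a natural gap, since 40 cells had 0.8 to 1.2% of their UMIs in Spp1. The 92 comprised 51 osteoblast- or cementoblast-like and 41 other mesenchymal cells, 30 of the latter in the Edil3-led PDL-like subcluster. The osteoblast- or cementoblast-like ones had Dmp1 at 1736 CPM, Enpp1 (which makes the mineralisation inhibitor pyrophosphate) at 584 CPM, Ank (a membrane protein that raises pyrophosphate outside the cell) at 1329 CPM and Ibsp at 23428 CPM. The 41 others had Dmp1 at 662 CPM, the collagenase Mmp13 at 5615 CPM, its inhibitor Timp1 at 5222 CPM and the Wnt antagonist Sfrp4 at 1860 CPM. The rest of the mesenchyme had Mmp13, Timp1 and Sfrp4 at 274, 292 and 134 CPM, and these 3 genes were picked out after their values had been seen.

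The cells with Spp1 at 1% or more of their UMIs, of both sorts, came from both libraries. Lipo-Clo and Lipo-PBS gave 27 and 24 of the osteoblast- or cementoblast-like and 24 and 17 of the other cells. The Edil3-led subcluster, where most of the others lay, had 254 Lipo-Clo and 504 Lipo-PBS cells in all. Osteoclasts are another known source of osteopontin, and 99 cells (47 and 52) had at least 10 UMIs over 6 osteoclast genes. Of these, 68 had no Spp1 UMI, 6 held 2347 of the 2390 Spp1 UMIs, and the rest stood at 71.2 CPM. The richest, a Lipo-PBS cell of 1098 Spp1 UMIs, was also the richest mesenchymal cell, so osteoclast-marked and mesenchymal cells overlap. Among the 6 genes, Ctsk was found in 47.1% of Lipo-Clo and 54.2% of Lipo-PBS mesenchymal cells. Reaching 10 UMIs over the list therefore does not by itself mark an osteoclast. Mmp9, an osteoclast gene picked out after its values had been seen, was at 441 CPM in 22 mesenchymal cells with 5% or more Spp1. The rest of the mesenchyme had 18.7 CPM. Whether osteoclasts or their transcripts are among the cells at 1% or more was not tested.

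**Figure D4:**
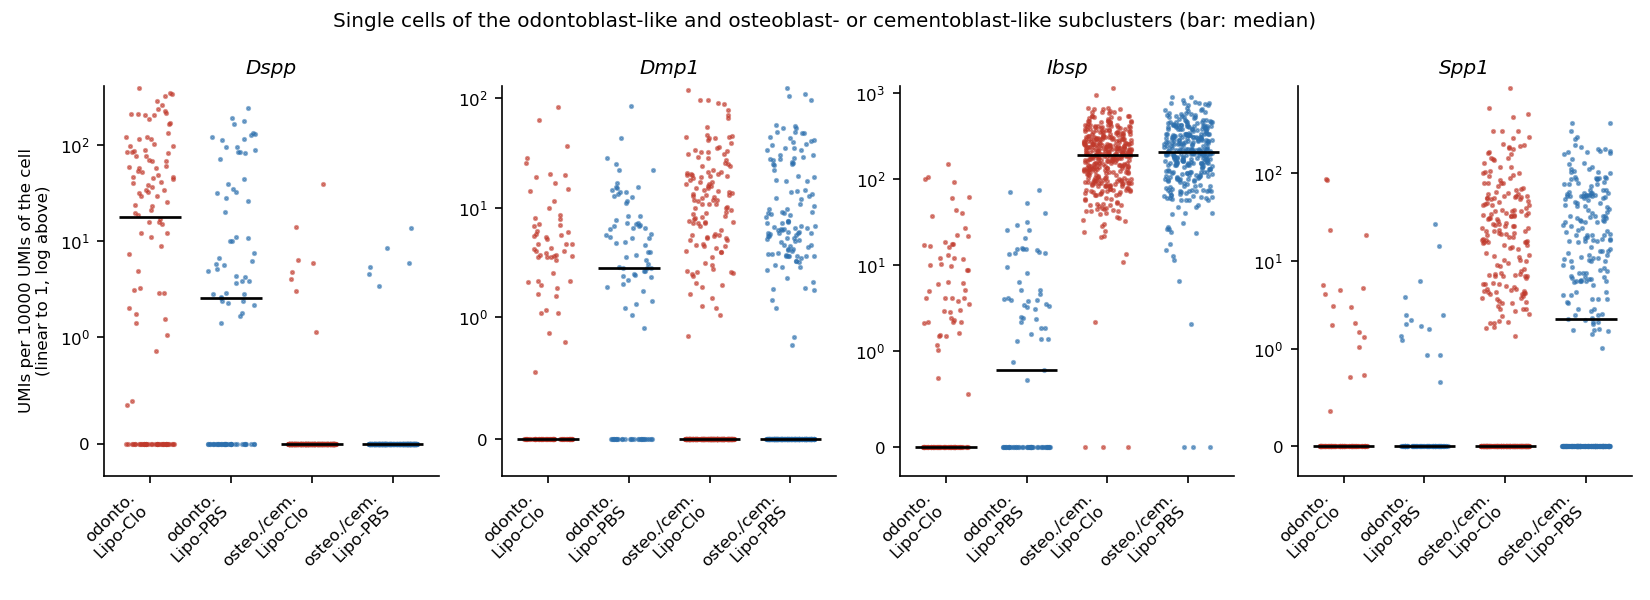
UMIs per 10000 UMIs of each cell (linear to 1, logarithmic above) in the odontoblast-like (122 Lipo-Clo, 91 Lipo-PBS) and osteoblast- or cementoblast-like (374 and 330) subclusters, 1 point per cell, with bars at the medians. Nearly all osteoblast- or cementoblast-like cells lie above 0 for Ibsp, while Dspp is at 0 in 690 of those 704 cells and in 77 of 213 odontoblast-like cells.

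Lipo-Clo was then set against Lipo-PBS, the comparison that asks how the family stood after macrophage depletion. Macrophages were not absent from Lipo-Clo. They numbered 132 of its 8254 cells (1.60%), against 193 of 8261 (2.34%) in Lipo-PBS. An unnamed cluster led by Ms4a6c, Cd74 and Lyz2 lay the other way, with 387 Lipo-Clo and 228 Lipo-PBS cells. A gene was in use where 10% or more of the mesenchymal cells of a library had a UMI of it, and it was counted as past the limit at a ratio of 1.5-fold or more. Of 4645 genes in use, 0.797% were at least 1.5-fold higher and 4.97% at least 1.5-fold lower in Lipo-Clo, and their median log2 ratio was −0.01. Ibsp and Spp1 were the family members in use, and 0 of these 2 passed the limit in either direction. Dspp, Dmp1 and Mepe were each found in under 10% of mesenchymal cells and did not enter that count.

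Dspp had 1841 UMIs and 137 CPM in Lipo-Clo mesenchyme and 1176 UMIs and 90.7 CPM in Lipo-PBS mesenchyme. The log2 ratio was 0.60 (0.49 to 0.70). The share of odontoblast-like cells lay on the same side, 122 of 4129 (2.96%, 2.46 to 3.52%) against 91 of 3979 (2.29%, 1.85 to 2.80%). These intervals overlap. Odontoblast-like cells themselves had 2389 CPM of Dspp in Lipo-Clo against 2084 in Lipo-PBS (log2 ratio 0.20, 0.09 to 0.31), and with both libraries weighted to 1 mixture of subclusters the mesenchymal ratio was 0.16. By summed counts the mesenchymal ratio was thus smaller where every subcluster had the same weight in both libraries. With cells weighed equally the ratio was 1.23 in mesenchyme and 1.03 in odontoblast-like cells, and with cells thinned to 1000 UMIs 0.95 in both. The part of cell numbers in the Dspp difference was not tested.

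The size of the Dspp ratio depended on how cells were weighed. Without the 10 richest cells of each library it was 0.90 (0.76 to 1.05) in mesenchyme and 0.59 (0.43 to 0.75) in odontoblast-like cells, and without 20 it was 1.47 and 1.49. The median odontoblast-like cell had 6 Dspp UMIs in Lipo-Clo (median depth 4260 UMIs) and 1 in Lipo-PBS (4843 UMIs). Cells with 10 or more were 46 of 122 (37.7%, 29.1 to 46.9%) and 25 of 91 (27.5%, 18.6 to 37.8%), shares whose intervals overlap. These measures all lay higher in Lipo-Clo, but others did not. The share of mesenchymal cells with a Dspp UMI was 3.41% in Lipo-Clo against 3.64% in Lipo-PBS, and mesenchyme outside both mineralising subclusters, at the background level, had a log2 ratio of −0.50 (−0.96 to −0.04).

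Dmp1 was at 90.5 and 83.5 CPM in Lipo-Clo and Lipo-PBS mesenchyme, and its log2 ratio of 0.12 (−0.00 to 0.24) was not clear of 0. By summed counts the mineralising subclusters stood on opposite sides. Odontoblast-like cells had 502 CPM in Lipo-Clo against 655 in Lipo-PBS (log2 ratio −0.38, −0.60 to −0.17), with a UMI in 45.9% and 69.2% of cells. Osteoblast- or cementoblast-like cells had 583 against 507 CPM (log2 ratio 0.20, 0.04 to 0.36). With these cells weighed equally the direction was the other, a mean of 648 CPM in Lipo-Clo against 665 in Lipo-PBS. No Dmp1 UMI was found in 66.6% and 62.4% of them. Without the 10 richest cells of each library the ratios were −0.60 and 0.21.

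Mesenchymal Ibsp stood at 3258 CPM in Lipo-Clo against 3511 in Lipo-PBS (log2 ratio −0.11, −0.13 to −0.09). With cells thinned to 1000 UMIs the ratio was −0.0027 (−0.039 to 0.034), no longer clear of 0. In osteoblast- or cementoblast-like cells it stood at 21680 against 24202 CPM (log2 ratio −0.16, −0.18 to −0.13), with medians of 50 and 65.5 UMIs per cell. In odontoblast-like cells, where Ibsp lay within its background range, the ratio had the other sign, 0.86 (0.67 to 1.06) from 1050.5 and 577 CPM. A UMI was nonetheless seen in fewer of the Lipo-Clo cells (45.1% against 51.6%), so the higher Lipo-Clo level came from more UMIs in the cells that had any. Outside mesenchyme Ibsp was lower in Lipo-Clo by a log2 ratio of −0.62 (−0.66 to −0.57), 579 against 887 CPM. Without the unnamed class, which includes the uneven cluster, it was −0.23 (−0.28 to −0.17), and macrophages (0.75), glia (0.41) and perivascular cells (0.29) lay the other way.

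Summed mesenchymal Spp1 stood at 731 and 723 CPM, a log2 ratio of 0.02 (−0.02 to 0.06). It was 0.28 (0.22 to 0.34) without the 10 richest cells of each library, 0.21 (0.13 to 0.30) with thinned cells and 0.58 with 1 mixture of subclusters. Its subclusters differed widely and in both directions. The Edil3-led PDL-like level was 6731 CPM in Lipo-Clo against 2674 in Lipo-PBS (log2 ratio 1.33, 1.27 to 1.39), in 40 and 53 cells with a UMI. The Lrrc4c-led level was 84.5 and 1277 CPM (−3.92, −4.20 to −3.65), with 1 Lipo-PBS cell holding 754 of 1137 UMIs. In odontoblast-like cells the ratio of 1.57 (1.05 to 2.12) was 0.06 without the 10 richest cells of each library.

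In osteoblast- or cementoblast-like cells, where Spp1 was widespread, it was at 3108 and 2709 CPM, a log2 ratio of 0.20 (0.13 to 0.27), and 0.09 (−0.00 to 0.17) without the 10 richest cells of each library. The share of these cells with an Spp1 UMI lay the other way, 47.3% and 53.0%. Its direction was reversed when each library was clustered on its own (−0.13) and when the mesenchyme was clustered more finely (−0.0095). Outside mesenchyme Spp1 stood at 177 and 301 CPM, a log2 ratio of −0.76 (−0.84 to −0.69). Without the 1 Lipo-Clo B cell of 1042 UMIs it was −1.60 (−1.69 to −1.51), from 99.5 and 301 CPM, and without the unnamed class −0.37 (−0.47 to −0.28).

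Within odontoblast-like cells 11.1% of 6181 genes in use were at least 1.5-fold higher and 13% at least 1.5-fold lower in Lipo-Clo. Of the 4 family members in use there, Ibsp and Spp1 were past the limit on the higher side and 0 on the lower side. In osteoblast- or cementoblast-like cells the shares over 4854 genes were 4% and 6.2%, and 0 of the 3 members in use (Dmp1, Ibsp and Spp1) were past the limit. Transcripts of other cell types moved between the libraries in the same cells. The 8 listed neutrophil genes summed to 569 and 81.7 CPM in Lipo-Clo and Lipo-PBS odontoblast-like cells, and to 489 and 142 CPM in osteoblast- or cementoblast-like cells. The 6 ameloblast genes summed to 788 and 494 CPM in the former and to 257 and 126 CPM in the latter, where the 10 stress genes summed to 4791 and 6415 CPM. The part of these transcripts in the differences above was not tested.

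**Figure D5:**
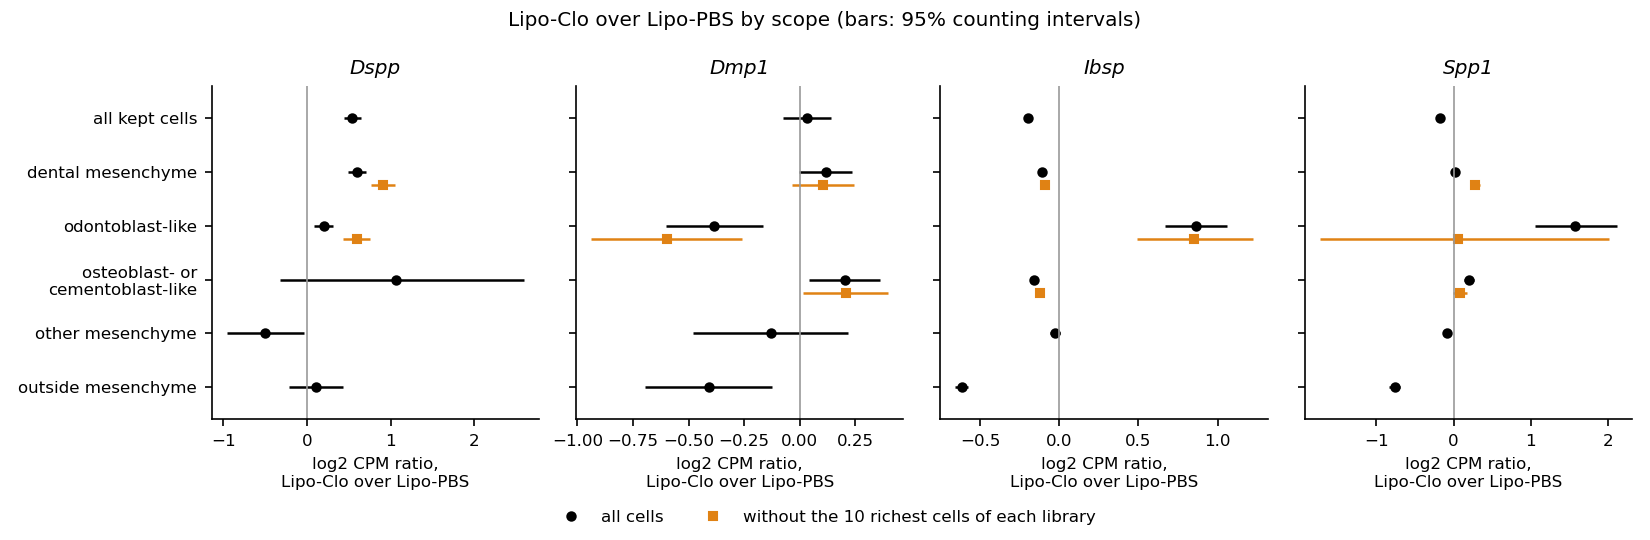
Log2 ratio of CPM, Lipo-Clo over Lipo-PBS, for all kept cells, mesenchyme, its odontoblast-like, osteoblast- or cementoblast-like and other cells, and the cells outside it, with 95% counting intervals, for all cells (black) and without the 10 richest cells of each library (orange). Each panel has its own axis. Dspp lies above 0 in mesenchyme, Dmp1 lies below 0 in odontoblast-like and above 0 in osteoblast- or cementoblast-like cells, and the odontoblast-like Spp1 ratio of 1.57 is 0.06 without the richest cells.

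Genes that act around the family were described as lists. Of 10 transcription factors of odontoblasts and osteoblasts, 8 were in use in mesenchyme, with a median log2 ratio of 0.10. Msx2, a homeobox gene of tooth mesenchyme, was past the limit at 58.3 against 35.2 CPM (0.73, 0.56 to 0.90), and 0 were lower past it. The Msx2 ratio was not clear of 0 in odontoblast-like (−0.03, −0.57 to 0.52) or osteoblast- or cementoblast-like cells (−0.28, −1.30 to 0.73). Sp7 (osterix, required for osteoblasts) was at 79.7 and 55.2 CPM, a log2 ratio of 0.53 (0.39 to 0.67), while Runx2, the master regulator of osteoblasts, was at 555 and 594 CPM (−0.10). Runx2 was highest in osteoblast- or cementoblast-like cells (1307 CPM, against 200.1 CPM in odontoblast-like cells).

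Of 11 genes for the kinase and proteases that process the proteins, 3 were in use, and 0 were past the limit (median −0.34). Their highest levels fell in odontoblast-like cells for 6 of the 11, Phex and Mmp20 among them. Phex and Mmp20 also served to name that subcluster, so their place there is not a separate result. The share of all genes highest there was not computed, so the count of 6 is a description only. Fam20c, the family's kinase, was at 51.2 CPM in odontoblast-like, 42.8 CPM in osteoblast- or cementoblast-like and 10.8 CPM in other mesenchymal cells. Fam20a, its partner pseudokinase, was at 102, 33.6 and 22.1 CPM. In mesenchyme Fam20c was even between the libraries, at 15.9 and 15.4 CPM.

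Of 11 receptors and partners, 6 were in use, with a median of −0.33 against −0.01 over all genes in use. All 6 had ratios below 0. The share of all genes below 0 was not computed, so that count is a description only. The integrin subunit Itgb1 was past the limit at 540 and 908 CPM (log2 ratio −0.75, −0.79 to −0.71). Itgav, the RGD-binding alpha subunit, was at 70.3 and 94.3 CPM (−0.42) and the osteopontin receptor Cd44 at 77.1 and 112 CPM (−0.54). Highest levels lay outside both mineralising subclusters for 7 of the 11, a count likewise without the share over all genes.

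Of 11 mineral and matrix genes, 8 were in use and 0 past the limit, with a median of 0.06. Bglap was at 24970 CPM in odontoblast-like, 3467 CPM in osteoblast- or cementoblast-like and 259 CPM in other mesenchymal cells. Enpp1 and Ank were highest in osteoblast- or cementoblast-like cells, at 192 and 661 CPM, as Spp1 was relative to odontoblast-like cells. The lists of other transcripts also differed in level. Neutrophil genes had 4 of 8 in use, all 4 past the limit on the higher side, and summed to 652 and 187 CPM in mesenchyme. Ameloblast genes had 2 of 6 in use with 0 past the limit and summed to 324 and 259 CPM, and osteoclast genes had 1 of 6 in use (Ctsk, −0.33). Of 10 dissociation stress genes Atf3 was past the limit on the lower side (−0.79), and the list summed to 5554 and 6564 CPM. Their part in the family's values was not tested.

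Genes whose pattern over the 12 mesenchymal subclusters was most like each member were taken by Pearson correlation of log2(CPM + 1) among the genes in use. For Dmp1 they were Bglap2 (r = 0.94), Bglap (0.90), Mef2c (0.89), Col11a2 (0.88) and Otulin (0.86). Dspp was followed by Smap1 (0.88), Atp2b1 (0.85), Atp6v1d (0.85), Lhx8 (0.84) and Ost4 (0.84). For Ibsp the genes were Myo1d (0.93), Tmem134 (0.89), Dchs1 (0.83) and Pdzd2 (0.81). For Spp1 no gene came as near, the first being mt-Nd3 (0.71), Daam2 (0.71), Glis2 (0.70), Coa8 (0.69) and Ik (0.68). Between members r was 0.62 for Dspp and Dmp1, 0.56 for Dmp1 and Spp1, 0.55 for Dmp1 and Ibsp, 0.46 for Ibsp and Spp1, 0.04 for Dspp and Spp1 and −0.03 for Dspp and Ibsp. The 12 points share 2 libraries and the same clustering. For Dspp, all subclusters but the odontoblast-like one lay at background. Its r values thus rest on 1 subcluster and on differences that the counts do not resolve. Phex and Mmp20 were not in use in mesenchyme and could not enter its list.

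In gene order on GRCm38 no other protein-coding gene lay between the members, which run Dspp, Dmp1, Ibsp, Mepe, Spp1. Sparcl1, a matricellular gene directly before Dspp, was at 52.0 CPM in odontoblast-like, 461 CPM in osteoblast- or cementoblast-like and 109 CPM in other mesenchymal cells, and highest in perivascular cells (1444 CPM). Pkd2, a channel gene directly after Spp1, was at 38.4, 66.4 and 71.7 CPM. Neither neighbour had the odontoblast-like maximum of Dspp.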

How the data were processed

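Raw UMI counts for each gene in each cell were deposited by the authors (Cell Ranger 8.0.0 per the file headers, whereas the submitters' processing notes list Cell Ranger 3.1.0, Seurat 3.1.1 and GRCm39). Dispase and Collagenase I had been used to free the cells. Counts were read with scanpy 1.11.5 (Python 3.11.15). A cell was kept if it had 200 genes or more and its mitochondrial share was 20% or less. Scrublet's own threshold called 1 cell per library, so the highest scores up to 0.8% per 1000 cells (632 and 633 cells, 7.11% and 7.12%) were left out. The libraries were clustered jointly, uncorrected for batch, on 2000 variable genes, 30 components and 20 neighbours (leidenalg 0.10.2, resolution 1), and mesenchyme again on 20 components at 0.6. The 5 members were kept out of the variable genes and the markers. A cluster was named from at least 3 listed markers, 2-fold above the median cluster and in 10% of its cells, unless its 10 leading genes held more markers of another class, with odontoblast, osteoblast and osteocyte lists pooled there.

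For each library the UMIs were added up and expressed as CPM. Log2 ratios are Lipo-Clo over Lipo-PBS, with exact intervals (scipy 1.17.1) at 95%. With 1 library per condition there was no test. UMIs of 1 cell are not independent draws, so intervals are too narrow where few cells hold them. Ratios were tried on simulated counts for 4645 genes, of which 200 were changed 2-fold in the mesenchymal comparison: 100% were recovered and 95.3% of intervals held the true value. The simulated counts were independent Poisson draws, so this coverage follows from the interval used. It says nothing of spread between cells or between libraries. Alternatives were other cell filters, doublets kept, members among the variable genes, other resolutions, each library clustered on its own, edgeR 4.0.16 TMM and DESeq2 1.42.0 factors (R 4.3.3), other totals, cells weighted equally or thinned to 1000 UMIs, 1 mixture of subclusters, a lower and a higher fold limit, and all genes with at least 20 UMIs. Leaving out the richest cells or the unnamed class was chosen after the data had been seen. The members, marker lists and gene lists were chosen with earlier results of these data known. Named genes are the members, listed genes, chromosomal neighbours and, for each member, the 5 genes in use most correlated with it over subclusters of at least 50 cells, with exceptions stated. A few results of that rule are not reported here.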

Additional observations from a re-analysis of the deposited data

Results flagged for a closer look

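The log2 ratio of Dmp1, Lipo-Clo over Lipo-PBS, lay on opposite sides of 0 in the mineralising subclusters, −0.38 in odontoblast-like and 0.20 in osteoblast- or cementoblast-like cells, a difference of −0.59. Ibsp also had opposite signs, 0.86 in odontoblast-like and −0.16 in osteoblast- or cementoblast-like cells, a difference of 1.02. Every interval of these 4 ratios was clear of 0 by counting error, but with 1 library per group neither difference was tested. The osteoblast- or cementoblast-like Dmp1 ratio did not keep its direction with cells weighed equally (mean of 648 CPM in Lipo-Clo against 665 in Lipo-PBS).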

How the results depend on the processing

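No paired analysis was possible because neither group holds more than 1 library. Values here are log2 ratios, Lipo-Clo over Lipo-PBS, unless counts are named. Dspp in mesenchyme was above 0 under all 15 alternatives, and Dmp1 stayed within 0.03 to 0.21. Dspp moved to 0.71 with doublets kept, 0.82 with each library clustered on its own, 1.23 as the mean over cells, 0.95 thinned to 1000 UMIs, 0.16 with the same mixture of subclusters and 0.90 without the 10 richest cells. In odontoblast-like cells it moved to 1.03 as the mean over cells, 0.95 thinned and 0.59 without the 10 richest. Ibsp in mesenchyme was below 0, though not clear of it when thinned, at −0.14 with members among the variable genes, −0.13 with Leiden at 2, −0.084 with each library on its own, −0.073 with TMM, −0.057 with DESeq2 factors, −0.14 without mitochondrial, haemoglobin and ribosomal genes in the totals, −0.034 as the mean over cells, −0.0027 (−0.039 to 0.034) thinned and −0.17 with the same mixture. Spp1 in mesenchyme went to −0.037 with members among the variable genes, 0.087 with each library on its own, 0.068 with DESeq2 factors, 0.22 as the mean over cells, 0.21 thinned, 0.58 with the same mixture and 0.28 without the 10 richest. In osteoblast- or cementoblast-like cells Spp1 was reversed with each library on its own (−0.13) and with the mesenchyme clustered at 1.2 (−0.0095), and was 0.043 with doublets kept, 0.11 under stricter cell filters (500 genes, 10% mitochondrial), 0.079 as the mean over cells, 0.083 thinned and 0.086 without the 10 richest. Mepe in Lipo-Clo mesenchyme had 0 UMIs with each library on its own, and the scalings gave no value for it. The 268 genes past the limit in mesenchyme became 101 with thinned cells, 172 with the same mixture, 1498 at a lower fold limit, 52 at 2-fold and 2231 over all genes with at least 20 UMIs. The causes of these changes were not tested. The level of Dspp in odontoblast-like cells ranged from 1991 to 2288 CPM over 10 clusterings and filters, and that of Ibsp in osteoblast- or cementoblast-like cells from 11290 to 23795 CPM, where the subcluster held 603 to 1425 cells. The counts do not resolve a level of Mepe or the order of Dspp levels outside odontoblast-like cells.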
